A study of Mus musculus with 16 samples.

Results

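Acute phase proteins are secreted proteins whose amounts in blood change during inflammation, and 10 of their genes were followed here in mouse fat: Serpina3n, Serpina3m, Serpina1b, Serpina1d, Orm1, Orm2, Orm3, Saa3, Hp and Hpx. They were taken by symbol from a table of 14023 genes, and all 10 were found. They were chosen by measured values of these libraries. Among the results known were that Hp was lower with rosiglitazone in epididymal fat, that Orm2 was lower in the mutant there, and that Saa3 was lower in the mutant given the drug. Differences of these genes in epididymal fat are therefore given as a description with no test. Tests are given for inguinal fat and for the difference between depots.

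RNA was sequenced from epididymal white fat (eWAT), which lies in the abdomen, and from inguinal white fat (iWAT), which lies under the skin. The mice were wild type (WT) or homozygous for K107R in PPARg, a change of a lysine known as a site for attaching the small protein SUMO, to arginine. All mice, controls included, ate regular chow for 10 weeks and then a high-fat diet (60% of calories) for 19 weeks. They then received by gavage, for 1 week, either rosiglitazone at 10 mg/kg, a drug that activates PPARg, or its vehicle, 1% methylcellulose. Depot, genotype and treatment made 8 groups of 2 libraries, 16 in all. Strain, sex, any cell type restriction of the mutation, and whether the libraries of a group came from separate mice or from pools are not given in the sources used here, so a p-value here reflects only how much the libraries vary, and that variation may be technical.

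The liver is the main source of acute phase proteins, and fat cells and the immune cells of fat also make several of them. Interleukin 6 acting through STAT3, interleukin 1 and tumour necrosis factor acting through NF-kB, and glucocorticoids induce these genes, with the C/EBP factors as shared activators. C/EBP factors also act with PPARg in making fat cells. The proteins fall into a few roles. Serpina genes encode secreted inhibitors of serine proteases, the orosomucoids bind small lipophilic molecules, serum amyloid A3 acts in inflammation, and haptoglobin and hemopexin bind free haemoglobin and haem.

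The RefSeq table of promoters (GRCm38.p6, from 250 bases before to 50 after each gene's start) held 7 of the 10 genes, and a match to the C/EBP motif TTGCNNAA on either strand lay in 6 of them, all but Serpina3n. The share among all 32851 promoters was 10.8%. The promoters of Serpina1b and Serpina1d were 94.1% identical over aligned bases, and those of Orm2 and Orm3 89.2%. The members of each pair are thus not separate cases in this count or those below. Bases upstream of the start are shown for 1 gene of each of 4 families whose levels are compared below, 5′ to 3′ on the gene's strand and with the match in capitals. The windows are chr12:103738190-103738439 (minus strand) for Serpina1b, chr4:63362199-63362448 (plus) for Orm2, chr7:46715677-46715926 (minus) for Saa3 and chr7:105600117-105600366 (minus) for Hpx. The RefSeq start used for Serpina1b lies inside its longer GENCODE gene, which ends at 103830373 on chromosome 12.
Serpina1b: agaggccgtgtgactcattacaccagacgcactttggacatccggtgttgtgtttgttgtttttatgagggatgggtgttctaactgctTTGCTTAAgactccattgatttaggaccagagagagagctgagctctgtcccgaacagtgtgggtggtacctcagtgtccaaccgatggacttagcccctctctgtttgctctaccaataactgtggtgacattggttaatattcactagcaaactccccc
Orm2: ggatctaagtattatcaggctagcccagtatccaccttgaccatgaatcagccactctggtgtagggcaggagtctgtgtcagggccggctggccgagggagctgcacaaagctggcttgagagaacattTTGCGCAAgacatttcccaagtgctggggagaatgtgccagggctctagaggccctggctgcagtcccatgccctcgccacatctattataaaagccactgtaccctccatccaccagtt
Saa3: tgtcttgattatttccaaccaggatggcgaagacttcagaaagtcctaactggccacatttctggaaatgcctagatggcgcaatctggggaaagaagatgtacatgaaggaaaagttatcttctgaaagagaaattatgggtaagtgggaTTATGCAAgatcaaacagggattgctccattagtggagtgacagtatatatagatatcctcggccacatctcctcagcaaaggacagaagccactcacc
Hpx: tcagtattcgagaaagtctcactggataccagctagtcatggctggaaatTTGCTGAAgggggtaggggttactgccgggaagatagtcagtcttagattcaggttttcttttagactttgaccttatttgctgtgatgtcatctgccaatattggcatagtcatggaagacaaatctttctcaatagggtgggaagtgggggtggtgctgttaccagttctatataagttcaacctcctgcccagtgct
The matches began at -161 from the start in Serpina1b, -120 in Orm2, -99 in Saa3 and -200 in Hpx. They also lay at -149 in Serpina1d and -121 in Orm3. The glucocorticoid receptor half-site AGAACA lay in 4 of the 7 promoters (Orm2, Serpina1b, Serpina1d and Serpina3n), against 19% of all. The nuclear receptor half-site AGGTCA lay in 1, that of Hpx, against 16.3% of all. On the gene's strand, TATAAA lay in 2 of the 7, Orm2 and Orm3, against 8.32%. The STAT motif TTCNNNGAA (8.3% of all) and the NF-kB motif (8.46%) lay in none of the 7 windows. No match overlapped a match to another motif, and a match or its lack is a description of letters only.

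Several of these genes are near copies, so single reads can be shared. Serpina3n, Serpina3m, Serpina1b and Serpina1d lie in 1 cluster on chromosome 12, and Orm1, Orm3 and Orm2 lie side by side on chromosome 4. In the GENCODE transcripts, 65.2% of the 75-base stretches of Serpina1d and 50% of those of Serpina1b matched another gene with at most 2 mismatches, chiefly Serpina1c, Serpina1a and Serpina1e. The share was 29.2% for Serpina3m, 26.1% for Orm1 and 26.1% for Orm2, and it was 8.34% for Serpina3n, 6.58% for Orm3, 3.04% for Saa3 and 0% for Hp and Hpx. Values of Serpina1b, Serpina1d, Serpina3m, Orm1 and Orm2 are thus uncertain between copies. Serpina3m also shares 60 exon bases with Serpina3k on the same strand.

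Values are FPKM, fragments scaled to transcript length and to the library's total, and the depth of each library is unknown because the table gives no counts. FPKM summed to between 411746 and 596519 per library. Fat cell markers summed to between 6369 and 18546 FPKM in every library, and the mesothelial list, which marks abdominal fat, to at least 55.3 in eWAT and at most 5.70 in iWAT. Markers of the epididymis summed to between 2991 and 3116 FPKM in the 2 libraries of eWAT K107R vehicle and to at most 4.94 in any other, so these libraries stand apart. Of the differences of the 10 genes called below, 39 could be recomputed with both libraries left out, and 35 of those were still called. Calls in eWAT for the drug in K107R or over genotypes, for K107R with vehicle and for the response difference could not be recomputed. The fit without these libraries therefore does not bear on those calls. Apart from the depot difference, the recomputed differences do not use these libraries, so only the shared spread and the filter could change. For the difference between depots, that fit also left iWAT K107R vehicle out of the comparison. Of 14 hepatocyte markers, 6 were measured. Their sum lay between 16.2 and 109 FPKM, and albumin (Alb) reached at most 8.44. In 7 of the 8 groups, Actb was at most 261 FPKM in library 2 and at least 771 in library 1. Some of the genes studied here also differed by library number: Hp was higher in library 2 in 8 of 8 groups, by a median of 0.53 on the log2 scale, and Orm1 was lower in library 2 in 8 of 8. In bulk tissue, fewer cells of a type and less RNA per cell cannot be told apart.

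Haptoglobin was by far the most abundant of the 10, and Serpina3n and Orm1 followed. Since FPKM is a level per length, levels can be set side by side between genes. Hp ranged from 493 to 3379 FPKM with a median of 1257, and its rank among the 14023 genes of a library was between 9 and 183. Serpina3n ranged from 132 to 427 FPKM and Orm1 from 29.9 to 197. Saa3 ranged from 1.19 to 81.6 and Serpina1b from 5.64 to 89.8 FPKM. The other 5 genes were low: Serpina3m reached 15.8 FPKM, Orm2 11.2, Serpina1d 3.73, Hpx 3.53 and Orm3 1.89. All 10 passed the filter of 1 FPKM in at least 2 libraries. Orm3 passed only through both libraries of eWAT WT vehicle, the group where it was highest. Orm2 passed only through eWAT, since 1 iWAT library alone reached 1 FPKM, at 1.18.

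**Figure D1:**
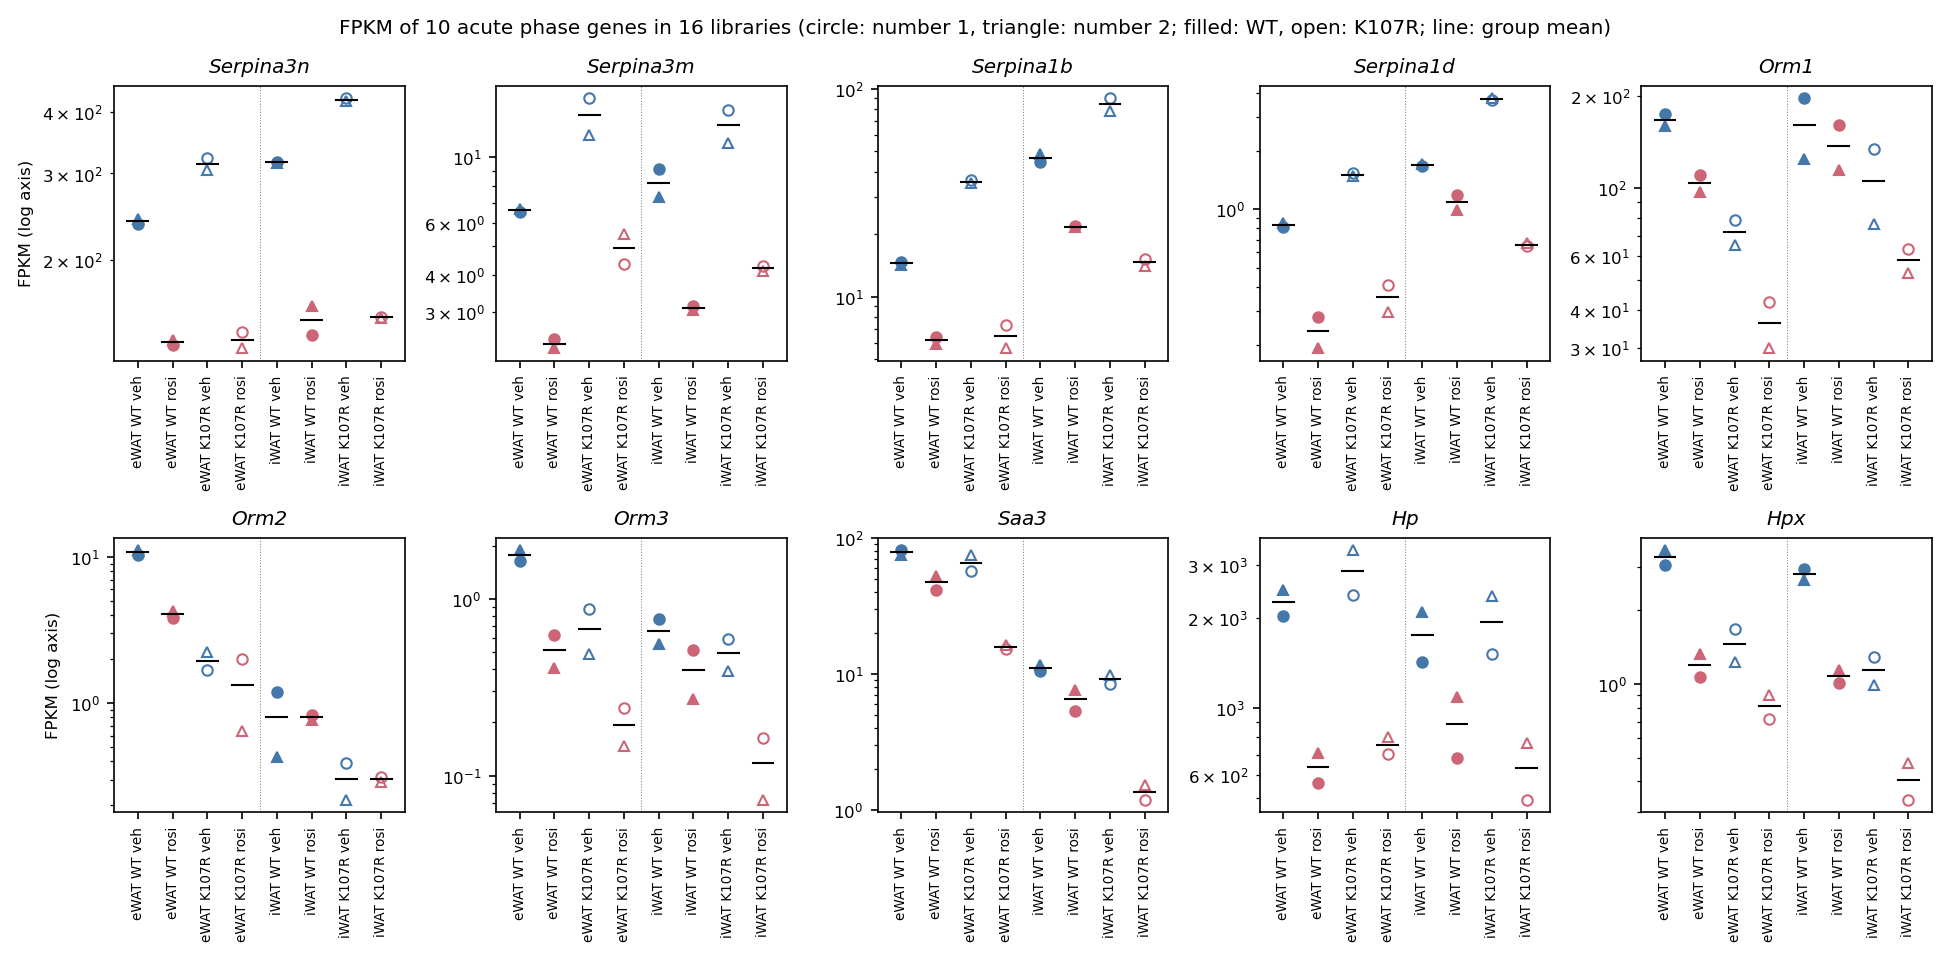
FPKM on a log axis of the 10 genes in each of the 16 libraries, with a panel per gene, circles for library 1, triangles for library 2, filled symbols for WT, open symbols for K107R and a line at each group mean. Hp lies above 493 FPKM everywhere, Saa3 and Orm2 lie higher in eWAT, and Serpina1b lies higher in iWAT.

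The rosiglitazone groups held less RNA of nearly all of these genes in both depots. In eWAT the mean with the drug lay below the mean with vehicle for 10 of 10 genes in WT and 10 of 10 in K107R. In iWAT the difference was negative for 9 of 10 in WT and 10 of 10 in K107R, where that of Orm2 was -0.00094 ± 0.27 (SE). All differences below are of log2(FPKM + 1), which shrinks changes of low genes, with the standard error (SE) from limma, and a call is an adjusted p under 0.05 over the 13669 genes tested.

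Serpina3n, an inhibitor of proteases such as granzyme B and neutrophil elastase, showed 2 separate bands of values. In eWAT it was 237 and 243 FPKM in WT with vehicle and 323 and 305 in K107R with vehicle. With rosiglitazone it was 134 and 137 in WT and 142 and 132 in K107R. The drug groups did not overlap the vehicle groups, and the 2 genotypes overlapped under the drug. In iWAT it was 316 and 316 FPKM in WT and 427 and 421 in K107R with vehicle, and 141 and 161 in WT and 153 and 152 in K107R with rosiglitazone. Averaged over genotypes in iWAT it fell by 1.27 ± 0.07 on the log2 scale (limma, adjusted p = 1.11e-05), to 41% of the vehicle mean. The corresponding difference in eWAT was -1.002 ± 0.07.

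Serpina1b, an alpha-1 antitrypsin that inhibits neutrophil elastase, had separate values in each of the 4 iWAT groups. With vehicle it was 44.5 and 48.5 FPKM in WT and 89.8 and 78.5 in K107R, and with rosiglitazone it was 21.9 and 21.6 in WT and 15.3 and 14.0 in K107R. No 2 of these 4 groups overlapped. K107R was the higher genotype with vehicle and the lower with rosiglitazone. In eWAT it was 14.7 and 14.2 in WT and 36.2 and 35.3 in K107R with vehicle, and 6.39 and 5.93 in WT and 7.29 and 5.64 in K107R with the drug. Averaged over genotypes in iWAT it fell by 1.75 ± 0.10 (limma, adjusted p = 1.01e-05), and the difference in eWAT was -1.71 ± 0.10.

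The copies of these 2 genes had the same order of vehicle over drug at lower levels. Serpina1d, a neighbour of Serpina1b with 96.4% identity between their transcripts, was 1.67 and 1.71 FPKM in WT and 3.67 and 3.73 in K107R in iWAT with vehicle. With rosiglitazone it was 1.19 and 0.989 in WT and 0.646 and 0.669 in K107R. In iWAT it fell by 0.93 ± 0.06 (limma, adjusted p = 2.38e-05), and the difference in eWAT was -0.73 ± 0.06. Among the 8 eWAT libraries it exceeded 1 FPKM in both of K107R vehicle, at 1.53 and 1.48, and in no other. Serpina3m, whose transcript is 82% identical to that of Serpina3n, fell by 1.28 ± 0.13 in iWAT (limma, adjusted p = 0.000382). Its libraries ran from 7.33 to 14.4 FPKM with vehicle and from 3.06 to 4.29 with the drug there, with no overlap. In eWAT its difference was -1.25 ± 0.13.

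Orosomucoids, the acid glycoproteins of plasma, followed the drug less evenly. Orm1 in eWAT was 175 and 160.0 FPKM in WT and 78.7 and 65.3 in K107R with vehicle, and 110.4 and 97.5 in WT and 42.4 and 29.9 in K107R with rosiglitazone. Within each genotype the drug and vehicle libraries did not overlap there. In iWAT they overlapped in WT, at 197 and 124 FPKM with vehicle and 161 and 115 with the drug. In K107R they did not, at 134 and 76.6 with vehicle and 63.3 and 52.8 with the drug. Its difference in iWAT was -0.50 ± 0.22 over genotypes (limma, adjusted p = 0.322), and with the replicate number as a block it passed (adjusted p = 0.0143).

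Orm2 was mostly an eWAT transcript. It was 10.4 and 11.2 FPKM in eWAT WT vehicle, 3.85 and 4.26 in WT with rosiglitazone, 1.67 and 2.22 in K107R vehicle and 2.01 and 0.650 in K107R with rosiglitazone. The K107R groups overlapped each other and lay below both WT groups. In iWAT its highest value was 1.18 FPKM, and the drug difference was 0.01 ± 0.19 (limma, adjusted p = 1). Orm3 reached 1.64 and 1.89 FPKM in eWAT WT vehicle and at most 0.871 in any other library. Its difference with the drug in iWAT was -0.33 ± 0.10 (limma, adjusted p = 0.11, and 0.0102 with the replicate block), from values of at most 0.767 FPKM.

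Saa3, the serum amyloid A of fat and macrophages, was set by depot and, under the drug, by genotype. In eWAT it was 81.6 and 75.2 FPKM in WT and 56.9 and 75.0 in K107R with vehicle, 41.6 and 52.9 in WT with rosiglitazone, and 15.3 and 16.4 in K107R with rosiglitazone. The last group lay well below the other 3. In iWAT the same order was seen at lower levels: 10.5 and 11.6 in WT and 8.49 and 9.87 in K107R with vehicle, 5.35 and 7.67 in WT with the drug, and 1.19 and 1.52 in K107R with the drug. Over genotypes in iWAT it fell by 1.40 ± 0.14 (limma, adjusted p = 0.00032), and the eWAT difference was -1.35 ± 0.14.

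Haptoglobin, which binds free haemoglobin for uptake by the macrophage receptor Cd163, did not overlap between treatments in eWAT. There it was 2037 and 2479 FPKM in WT and 2382 and 3379 in K107R with vehicle, and 561 and 709 in WT and 703 and 801 in K107R with rosiglitazone. The drug mean was 28.1% of the vehicle mean in WT and 26.1% in K107R, and the genotypes overlapped under both treatments. In iWAT it was 1421 and 2099 in WT and 1513 and 2371 in K107R with vehicle, and 682 and 1093 in WT and 493 and 766 in K107R with rosiglitazone. Over genotypes it fell by 1.31 ± 0.24 there (limma, adjusted p = 0.0102). That call was lost with rescaled libraries (adjusted p = 0.13) and in the iWAT libraries alone (adjusted p = 0.13). In WT alone its mean with the drug was 50.4% of that with vehicle (limma, adjusted p = 0.29, and 0.00194 with the replicate block).

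Hemopexin, which binds free haem for uptake through the receptor Lrp1, was low but followed both drug and genotype. In iWAT it was 2.95 and 2.67 FPKM in WT mice given vehicle, 1.01 and 1.14 in WT with rosiglitazone, 1.29 and 0.989 in K107R vehicle and 0.335 and 0.476 in K107R with rosiglitazone. WT vehicle was the highest group and the treated mutant the lowest. With the drug it fell by 0.74 ± 0.10 over genotypes (limma, adjusted p = 0.00129). In eWAT WT vehicle also stood highest, at 3.05 and 3.53 FPKM, against 1.07 and 1.32 in WT with the drug, 1.67 and 1.23 in K107R vehicle and 0.721 and 0.902 in K107R with the drug. The eWAT difference was -0.70 ± 0.10.

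Counted over genes, 4 of 10 fell in iWAT of WT mice, where 0.775% of all genes tested were called lower, and 7 of 10 fell in iWAT of K107R mice, where 2.28% were. The counts were 7 and 9 with the replicate block, against 2.96% and 5.82%. Averaged over genotypes, 7 of 10 fell in iWAT (2.25% of all genes), and the median difference of the 10 was -1.10 against 0.02 for all genes. With the block it was 9 of 10 (6.87%). In eWAT, 6 of 10 were called lower in WT (0.278% of all) and 6 of 10 in K107R (3.61%), and 9 of 10 over genotypes (3.58%). The block took these counts to 9 (1.45%), 8 (5.88%) and 10 (6.15%). Nothing is read from the eWAT counts, because the genes were chosen with those contrasts known. The calls of single groups rested on few libraries: leaving out 1 library in turn gave between 1 and 4 calls in iWAT of WT mice. The count there was 1 without either WT rosiglitazone library or without WT vehicle 2, and 2 without WT vehicle 1. In eWAT of WT mice, each of the 4 libraries of that contrast took the count to 0 when left out.

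Marker sums moved with the drug as well. All 10 fat cell markers were measured, and their sum was higher with rosiglitazone, at 7832 to 8330 FPKM against 6369 to 6524 in eWAT WT and 10476 to 10782 against 7556 to 7638 in eWAT K107R. In iWAT it was 14327 to 15399 against 10871 to 11346 in WT and 18246 to 18546 against 11540 to 13128 in K107R. Taken singly and over genotypes, 3 of the 10 fat cell markers were called higher and 0 lower in each depot. Their differences were positive for 8 markers in eWAT and 7 in iWAT. The median was 0.16 in eWAT against 0.10 for all genes, and 0.30 in iWAT against 0.02. Whether the higher sums reflect more fat cells or more marker RNA per cell was not tested. In eWAT of K107R mice the epididymal sum went from between 2991 and 3116 FPKM with vehicle to at most 4.94 with the drug, and the epithelial sum from between 122.4 and 129.5 to between 8.21 and 8.22. In iWAT the sum of B and T cell markers was 68.5 to 104 FPKM with vehicle and 23.0 to 34.4 with the drug in K107R, and 109 to 163 and 174 to 241 in WT. The hepatocyte sum in eWAT WT was 48.1 to 61.0 FPKM with the drug and 18.6 to 21.7 with vehicle. In iWAT WT it was 71.8 to 109 and 36.7 to 58.4, and in K107R the treatments overlapped in both depots. Single hepatocyte markers did not all follow the sum: 4 of the 6 had a negative difference in eWAT WT, and 0 were called. Over genotypes in eWAT, 3 were called lower and 0 higher, with a median of -0.62 against 0.10 for all genes. In iWAT over genotypes, 4 were positive and 1 negative, and 0 were called. The neutrophil sum in eWAT WT was 26.9 to 34.9 with the drug and 46.8 to 68.7 with vehicle, and the treatments overlapped elsewhere. Single neutrophil markers did not follow this sum: in eWAT WT 8 of the 10 had a positive difference and 0 were called. In eWAT K107R 5 were called higher and 1 lower, with a median of 0.97 against 0.17 for all genes. The macrophage sums of the treatments overlapped in both genotypes of both depots. The part of these cells in the differences was not tested.

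**Figure D2:**
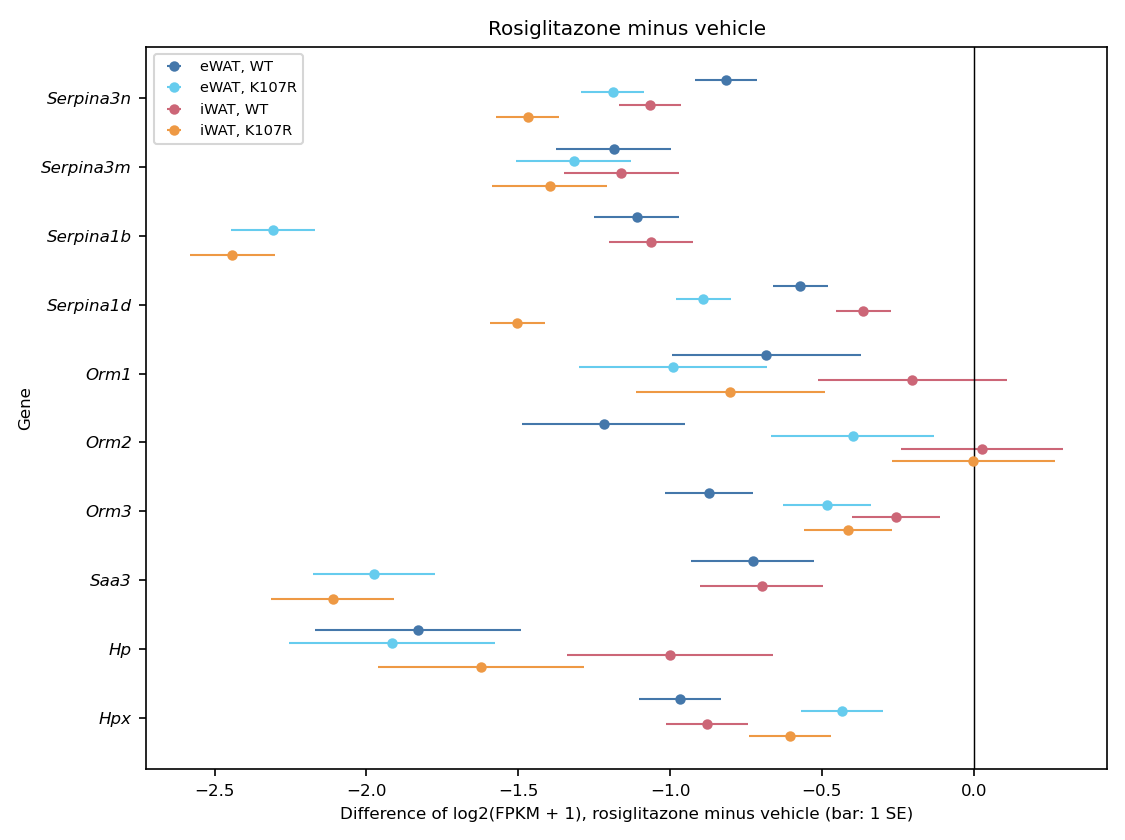
Difference of log2(FPKM + 1) between rosiglitazone and vehicle for each of the 10 genes (rows) in eWAT and iWAT of WT and K107R mice, with points for the difference and bars for its SE. All points lie at or left of 0 except Orm2 in iWAT of WT mice, and Serpina1b and Saa3 in K107R mice lie at about -2.

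With vehicle, the mutant differed from WT in opposite ways in 2 groups of these genes. In iWAT, Serpina1b was higher in K107R by 0.84 ± 0.14 (limma, adjusted p = 0.0291), or 181% of the WT mean. Serpina1d was higher by 0.81 ± 0.09 (limma, adjusted p = 0.00225), at 219% of the WT mean. Serpina3n, at 134% of the WT mean, differed by 0.42 ± 0.10 (limma, adjusted p = 0.19, and 0.0414 with the replicate block). Serpina3m differed by 0.58 ± 0.19 (limma, adjusted p = 0.523). The 4 serpins were higher in K107R in both libraries of each. Hpx was lower in K107R by -0.84 ± 0.14 (limma, adjusted p = 0.0268), at 40.5% of the WT mean. Thus 2 of 10 genes rose and 1 fell, where 0.41% and 0.168% of all genes did, and 3 and 1 did with the replicate block (0.988% and 1.13%). The call of Serpina1b was lost on leaving out 14 of the 16 libraries in turn (adjusted p from 0.0549 to 0.295) and that of Hpx on leaving out 13 (from 0.051 to 0.256).

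The orosomucoids did not pass in iWAT with vehicle: Orm1 differed by -0.62 ± 0.31, Orm2 by -0.44 ± 0.27 and Orm3 by -0.16 ± 0.14 (limma, adjusted p = 1 for each). Saa3 and Hp differed by -0.25 ± 0.20 and 0.13 ± 0.34 (limma, adjusted p = 1 for each). With the iWAT libraries alone, or with rescaled libraries, none of the 10 was called in this contrast. Serpina1b then had an adjusted p of 0.613 and 0.368, Serpina1d of 0.618 and 0.0954, and Hpx of 0.64 and 0.0978.

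In eWAT with vehicle the same genes stood on the same sides. K107R was higher for Serpina1b by 1.25 ± 0.14, for Serpina3m by 0.95 ± 0.19, for Serpina1d by 0.45 ± 0.09 and for Serpina3n by 0.39 ± 0.10. It was lower for Orm2 by -2.002 ± 0.27, for Orm1 by -1.21 ± 0.31, for Hpx by -0.81 ± 0.14 and for Orm3 by -0.73 ± 0.14. The Orm2 mean in K107R was 18.1% of that in WT. Of the 10, 3 were called higher and 3 lower, against 2.89% and 0.461% of all genes, and 4 and 4 with the replicate block (4.77% and 3.53%), which is a description only. The median over all genes was -0.13 in this contrast, and rescaling moved it to 0.01. The epididymal marker sum moved with this contrast in eWAT (2991 to 3116 FPKM against at most 0.165), and so did albumin (Alb), at 4.71 and 3.75 FPKM against 1.09 and 1.34. Their part in the eWAT differences was not tested. In iWAT the epididymal sum was at most 0.0181 FPKM in K107R vehicle, and albumin was 4.75 and 3.34 FPKM against 8.44 and 6.90 in WT.

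Under rosiglitazone Serpina3n and Serpina1b no longer stood above WT in iWAT of the mutant, and Saa3 and Orm1 stood below it. In iWAT, Serpina3n differed by 0.02 ± 0.10 (limma, adjusted p = 1). Serpina1b, higher in the mutant with vehicle, was lower by -0.54 ± 0.14 with the drug (limma, adjusted p = 0.0698, and 0.0115 with the replicate block). Saa3 was 20.8% of the WT mean, and fell by 1.66 ± 0.20 relative to WT (limma, adjusted p = 0.000809). Hpx was lower by -0.56 ± 0.14 (limma, adjusted p = 0.0493). Orm1 was 42.1% of the WT mean, at -1.22 ± 0.31 (limma, adjusted p = 0.0653, and 0.000779 with the replicate block). Of the 10, 2 fell, against 3.14% of all genes called lower, and 6 did with the replicate block, against 6.45%. Hpx lost its call when any 1 of the 16 libraries was left out (adjusted p from 0.0505 to 0.325). Saa3 kept its call in each of those fits, and it did not in the iWAT libraries alone (adjusted p = 0.0506) or with rescaled libraries (adjusted p = 0.0667). The sum of 8 B and T cell markers moved with this contrast, at 23.0 to 34.4 FPKM in K107R and 174 to 241 in WT, and its part was not tested.

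In eWAT under rosiglitazone, Saa3 differed by -1.50 ± 0.20, Orm1 by -1.52 ± 0.31 and Orm2 by -1.18 ± 0.27. Serpina3n differed by 0.01 ± 0.10 and Serpina1b by 0.05 ± 0.14, and only Serpina3m of the serpins lay well above WT, by 0.82 ± 0.19. Of the 10, 1 was called lower, Saa3, against 0.907% of all genes called in either direction, and 4 were called with the replicate block, against 3.47%. Nothing is read from these counts, because the genes were chosen with this contrast known. The epididymal sum was at most 4.94 FPKM in these 4 libraries.

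**Figure D3:**
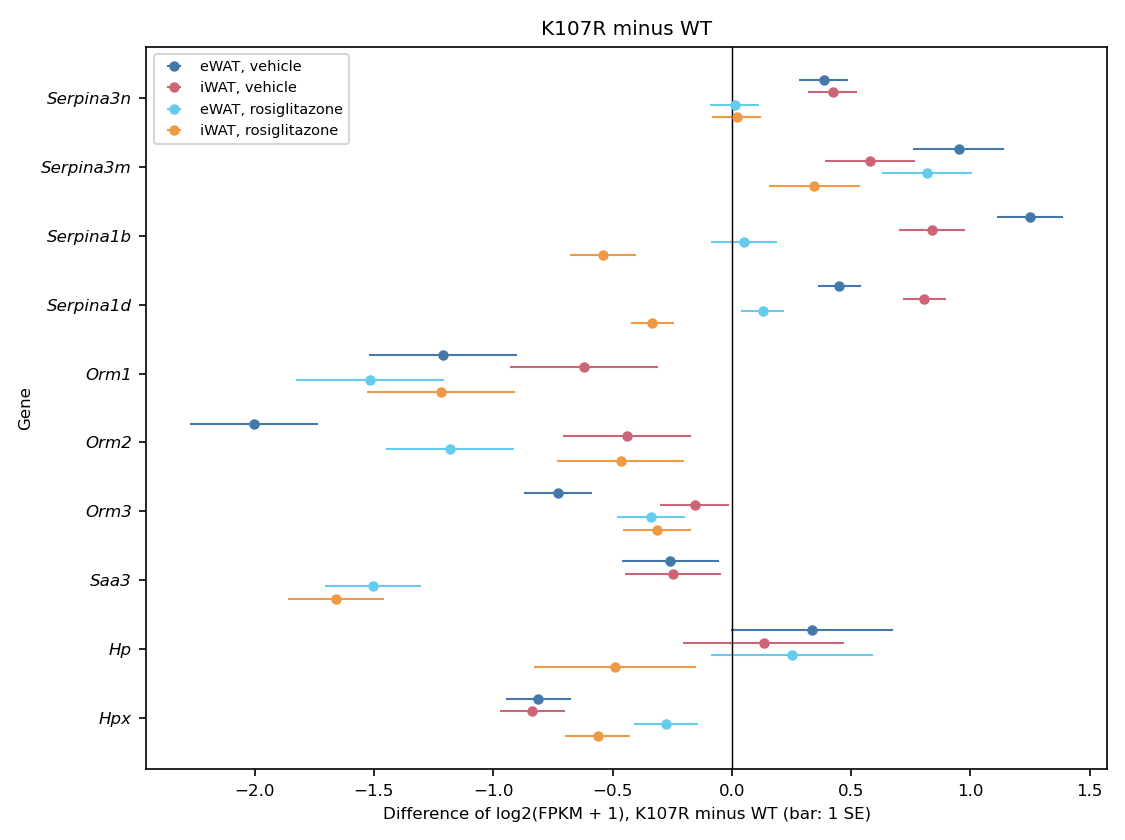
Difference of log2(FPKM + 1) between K107R and WT for each of the 10 genes (rows) in each depot under vehicle and rosiglitazone, with points for the difference and bars for its SE. The serpins lie right of 0 under vehicle, and Orm1 and Saa3 lie near -1.2 to -1.7 under rosiglitazone.

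The drug response differed between genotypes for the alpha-1 antitrypsins. In iWAT the difference of responses (K107R minus WT) was -1.38 ± 0.20 for Serpina1b (limma, adjusted p = 0.00899) and -1.14 ± 0.13 for Serpina1d (limma, adjusted p = 0.00238). Serpina1b fell to 17.4% of the vehicle mean in K107R and to 46.7% in WT. The difference was -1.41 ± 0.29 for Saa3 (limma, adjusted p = 0.0586, and 0.00309 with the replicate block), which fell to 14.8% in K107R and stood at 58.9% in WT. The other 7 differed by values from -0.62 for Hp to 0.27 for Hpx, and none passed with or without the block. These 2 calls compare with 0.966% of all genes. They were lost with rescaled libraries (adjusted p = 0.278 for Serpina1b and 0.112 for Serpina1d) and in the iWAT libraries alone (adjusted p = 0.362 and 0.458). Without K107R rosiglitazone 2, Serpina1b had an adjusted p of 0.0555. In eWAT the values were -1.20 ± 0.20 for Serpina1b, -1.25 ± 0.29 for Saa3 and -0.32 ± 0.13 for Serpina1d. There 1 of 10 was called, Serpina1b, against 2.53% of all genes, and 2 with the replicate block, against 4.2%, from which nothing is read for the same reason as in the other eWAT contrasts.

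Other genes had differences of response between genotypes too. In iWAT, 2 of 8 B and T cell markers were called lower (6 with the block), with a median of -1.55 against 0.03 for all genes. In eWAT the median was -8.54 over the 5 epididymal and -2.76 over the 8 epithelial markers tested, against 0.15 for all genes. The part of these cells in the differences was not tested. Of the 4 other Serpina genes tested, Serpina1e was called in iWAT (-1.07 ± 0.15, limma, adjusted p = 0.00769), and 3 were called lower there with the replicate block. Serpina1e is among the genes that chiefly match the 75-base stretches of Serpina1b and Serpina1d. Its call may therefore rest on the same reads as theirs.

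The depots differed for most of these genes, and in both directions. Whether eWAT and iWAT came from the same mice is not given, so these tests may ignore a pairing within mice. Over all groups, Saa3 was higher in eWAT by 2.74 ± 0.10 (limma, adjusted p = 2.52e-08), and every eWAT library, from 15.3 FPKM up, lay above every iWAT library, at most 11.6. Orm2 was higher in eWAT by 1.54 ± 0.13 and Orm3 by 0.28 ± 0.07. Both are a description only, because they passed the filter only through eWAT libraries. Serpina1b was higher in iWAT, with an eWAT minus iWAT difference of -1.39 ± 0.07 (limma, adjusted p = 1.71e-07). Serpina1d followed it at -0.63 ± 0.05 (limma, adjusted p = 2.25e-06). Serpina3n differed by -0.28 ± 0.05 (limma, adjusted p = 0.00163, and 0.0712 with rescaled libraries). Hpx was higher in eWAT by 0.20 ± 0.07 (limma, adjusted p = 0.0438), a call that was lost on leaving out 14 of the 16 libraries in turn (adjusted p up to 0.11).

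Serpina3m, Orm1 and Hp did not pass, at -0.07 ± 0.09, -0.37 ± 0.15 and 0.20 ± 0.17 (limma, adjusted p = 0.638, 0.102 and 0.436). Orm1 and Hp did with the replicate block (adjusted p = 0.00324 and 0.0265). Thus 4 of 10, Orm2 and Orm3 among them, were higher in eWAT and 3 higher in iWAT. Of all genes, 19.9% and 12.5% were, so calls are common in this comparison. The counts were 5 and 4 with the block (34.8% and 21%). The macrophage marker sum was 4010 to 5184 FPKM in eWAT and 983 to 1433 in iWAT, and the fat cell sum was 6369 to 10782 in eWAT and 10871 to 18546 in iWAT. Both move with depot, and their part in these differences was not tested. The difference of drug responses (eWAT minus iWAT), a description because it uses the eWAT contrast, was -0.56 ± 0.34 for Hp and -0.82 ± 0.27 for Orm2, and 0.05 ± 0.20 for Saa3.

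The tested genes that act before the acute phase genes were mostly not called. Of 27 inducers, receptors and signalling genes listed (among them Il6ra, Stat3, Socs3 and the C/EBP factors), 21 were tested. Il6, Il1a and Il11 had no values in these data, so these inducers could not be tested. None was called by limma with rosiglitazone over genotypes in either depot, or between genotypes with vehicle in either depot. At an unadjusted p under 0.05 the counts were 1 and 2 for the drug in eWAT and iWAT, and 1 and 0 for the genotype. With the replicate block, 2 were called lower with the drug in iWAT and 2 lower in K107R in eWAT with vehicle. Socs3, a target and brake of STAT3 signalling, differed by -0.31 ± 0.13 with the drug in eWAT (limma, adjusted p = 0.401) and by -0.32 ± 0.13 in iWAT (adjusted p = 0.298). Under rosiglitazone in iWAT it was lower in K107R, as Saa3 was: 2.59 and 1.84 FPKM against 4.82 and 4.36 in WT, and fell by 0.81 ± 0.19 relative to WT (limma, adjusted p = 0.0436). Cebpb and Cebpd varied widely between libraries, with drug differences in eWAT of 0.46 ± 0.93 and -0.26 ± 0.50 (limma, adjusted p = 0.968 for each).

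Receptors and proteases that bind these proteins were tested for 13 of 16 listed genes. Cd163, the haptoglobin-haemoglobin receptor, differed with the drug by -0.06 ± 0.14 in eWAT and 0.15 ± 0.14 in iWAT (limma, adjusted p = 0.968 and 0.898). It stood at 7.41 to 13.5 FPKM in eWAT and 15.9 to 27.0 in iWAT, so it was lower in the depot with the larger macrophage sum (-0.91 ± 0.10, adjusted p = 4.92e-05). With the drug in iWAT, Lrp1 fell by 0.57 ± 0.11 (limma, adjusted p = 0.0173), from 94.0 to 105.6 FPKM with vehicle to 55.0 to 79.3 with the drug, and differed by 0.01 ± 0.11 in eWAT. Scarb1, a lipoprotein receptor that also binds serum amyloid A, rose in iWAT by 0.59 ± 0.14 (limma, adjusted p = 0.0379). Elane, the neutrophil elastase that alpha-1 antitrypsin inhibits, was at most 1.75 FPKM and differed with the drug by 0.43 ± 0.16 in eWAT and -0.10 ± 0.16 in iWAT (limma, adjusted p = 0.271 and 1). Gzmb, the granzyme that Serpina3n inhibits, differed by 0.02 ± 0.13 and -0.32 ± 0.13 (limma, adjusted p = 0.978 and 0.288). Between genotypes with vehicle, Elane differed by 0.16 ± 0.23 in eWAT and 0.09 ± 0.23 in iWAT, and Gzmb by -0.35 ± 0.19 and -0.14 ± 0.19 (limma, adjusted p of 0.752 or more in each). In eWAT 1 gene rose with the drug, the mast cell chymase Cma1, and 1 fell, Mmp9, both chosen after their values were seen because their libraries overlap between the treatments. With vehicle, 2 genes were lower in K107R in eWAT (Cma1 and Mmp9) and 1 in iWAT (Mmp9). With the replicate block the counts of higher and lower genes were 4 and 1 for the drug in eWAT, 2 and 3 for the drug in iWAT, 0 and 4 for the genotype in eWAT and 0 and 1 in iWAT.

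Other acute phase genes that were called with the drug were all lower, in both depots. Of 24 listed, 13 were tested, and 4 were called lower in eWAT, Fga among them, and 3 in iWAT over genotypes, with none higher. The median difference was -0.62 in eWAT against 0.10 for all genes, and -0.41 in iWAT against 0.02. The counts were 9 and 6 with the replicate block. Lrg1, a secreted glycoprotein made in liver and neutrophils, fell by 1.43 ± 0.13 in eWAT (limma, adjusted p = 7.37e-05) and by 1.32 ± 0.13 in iWAT (adjusted p = 0.000306), where its libraries overlapped between the treatments across genotypes. Lbp, which carries bacterial lipopolysaccharide, fell by 1.11 ± 0.16 in eWAT (adjusted p = 0.00176) and by 1.51 ± 0.16 in iWAT (adjusted p = 0.000401). Lcn2, which binds bacterial iron carriers, fell by 1.22 ± 0.12 in eWAT (adjusted p = 0.000122) and by 0.51 ± 0.12 in iWAT (adjusted p = 0.0405). The fourth in eWAT was Fga, which was at most 0.0280 FPKM in every library but the 2 of eWAT K107R vehicle. It passed the filter only through those libraries, so that its calls followed from the filter, and it was named after its values were seen.

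With vehicle, 2 of these 13 were higher in K107R in eWAT, Lcn2 at 28.0 and 30.7 FPKM against 14.2 and 14.7 (0.97 ± 0.17, limma, adjusted p = 0.00894) and Fga at 1.36 and 1.38 against at most 0.0280. None was called in iWAT, where 2 had an unadjusted p under 0.05 and 2 were called with the replicate block. Lcn2 in iWAT was 2.74 and 3.39 FPKM in K107R and 2.44 and 2.64 in WT. The epididymal marker sum moved with the eWAT contrast, and its part there was not tested.

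**Figure D4:**
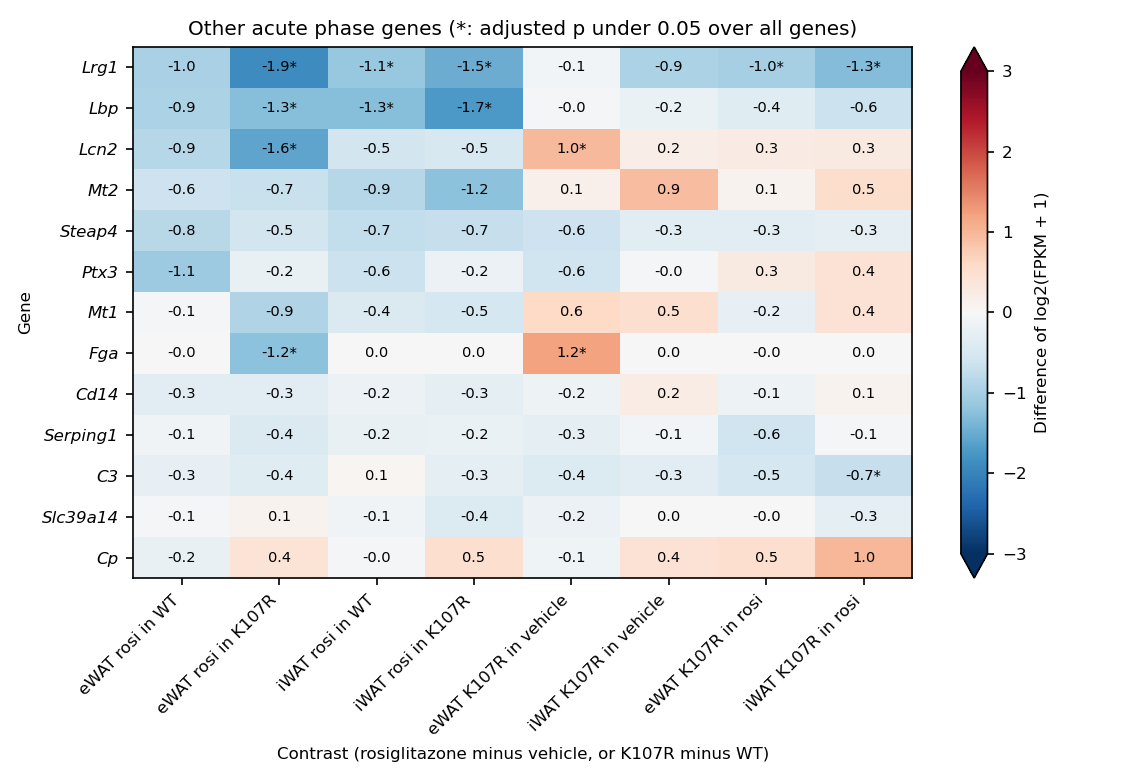
Differences of log2(FPKM + 1) of the other acute phase genes (rows) in each contrast of drug or genotype (columns), with colour for the difference and an asterisk for an adjusted p under 0.05 over all genes. In the 4 rosiglitazone columns Lrg1 and Lbp lie between -1.88 and -0.94.

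Of 17 other Serpina genes, also chosen with earlier results of these data known, 4 were tested. With the drug, 2 fell in eWAT and 1 in iWAT over genotypes, and 3 and 2 did with the replicate block. Serpina3c, a secreted serpin of the same cluster, fell by 1.02 ± 0.14 in eWAT (limma, adjusted p = 0.00108) and by 0.92 ± 0.14 in iWAT (adjusted p = 0.00335). Its iWAT libraries were 168 and 206 FPKM in WT and 159 and 173 in K107R with vehicle, and 96.8 and 134 in WT and 71.6 and 79.3 in K107R with the drug. Serpina1e, a near copy of Serpina1b, was called lower in eWAT by -0.33 ± 0.07 (limma, adjusted p = 0.0263) and was named after its values were seen. None of the 4 was called between genotypes with vehicle in either depot, where 2 in eWAT and 0 in iWAT had an unadjusted p under 0.05 and 2 and 0 were called with the block. For Serpina3c the genotype difference was negative, unlike that of Serpina3n, at -0.31 ± 0.19 in eWAT and -0.17 ± 0.19 in iWAT (limma, adjusted p = 0.884 and 1). Under rosiglitazone in iWAT, 3 of the 4 were lower in K107R, and 4 with the block, with a median of -0.85 against -0.01 for all genes. Of all genes, 3.14% were called lower there, and 6.45% with the block. In the same contrast 6 of 8 B and T cell markers were called lower, with a median of -2.40, and the part of these cells was not tested. Serpina1e fell by 1.20 ± 0.10 relative to WT (limma, adjusted p = 8.39e-05), Serpina3g fell by 1.08 ± 0.15 (adjusted p = 0.00229) and Serpina3f fell by 0.62 ± 0.12 (adjusted p = 0.0151). In eWAT under the drug none was called, 2 had an unadjusted p under 0.05, and with the block 1 was higher and 1 lower.

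Among themselves the 10 genes formed no single pattern across the 8 group means of log2(FPKM + 1). Pearson's r, given as a description of points that share libraries, was 0.977 between Serpina1b and Serpina1d, which share reads, and 0.917 between Serpina3n and Serpina3m. It was 0.897 between Serpina3n and Serpina1b and 0.873 between Serpina3n and Hp. It was -0.444 between Serpina1b and Orm2 and -0.176 between Serpina1b and Saa3, pairs with opposite depot differences. Among 9754 genes with a group mean of at least 5 FPKM, the one most like Serpina3n was Palm (r = 0.964 over 8 group means, 0.94 over 16 libraries). The nearest to Orm1 was H2-Aa (0.939 and 0.82), to Saa3 Ccdc9 (0.975 and 0.807), to Hp the complement gene C4b (0.951 and 0.936) and to Hpx St5 (0.962 and 0.567).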

How the data were processed

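Per the labels' protocols, RNA of 16 libraries of mouse white fat was read as 75-nt single ends from a stranded mRNA kit. FPKM values in the deposited table were made by the authors with CASAVA 1.8.2, TopHat2 2.0.12 and Cufflinks 2.2.1 on the mm10 build, per the submitters' processing notes. The annotation, strand setting, treatment of reads that match several places and scaling between libraries are not given in the sources used here. FPKM carries no counts, so no depth or counting interval could be given.

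Values were transformed to log2(FPKM + 1), and genes at 1 FPKM or more in at least 2 libraries were kept (13669 of 14023). All 16 libraries entered a single fit with limma 3.58.1 (R 4.3.3), which estimated each group's mean and allowed the variance to trend with the mean, with two-sided p-values and Benjamini-Hochberg adjustment over all genes tested, within each of 14 contrasts. The procedure was tested on simulated data. Samples were grouped by the labels' titles.

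Hp, Saa3 and the other genes studied, and all gene lists, were chosen with earlier results of these data known. Named list genes are those called, at most 4 per direction by size, with no overlap between groups and a higher mean of at least 2 FPKM, or, where none was called, up to 2 with the smallest p, and any list gene that acts with a gene described. The 5 genes most like 1 gene of each family were ranked by Pearson's r over group means, and the first is named, except for Serpina1b, for which it is not reported here.

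Replicate numbers were taken from the labels, where their meaning is not explained. Same-numbered libraries deviated together from their group means, with correlations above 0.1 in 28 of 28 pairs of groups (lowest 0.12, median 0.57, highest 0.79), so the numbers were taken to pair the libraries, and counts of calls with the number as a block are given beside the others.

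Alternatives were a pseudocount of 0.1, no filter, libraries rescaled by their median ratio to the geometric mean, the depot's libraries alone, the replicate block, and leaving out each library or both eWAT K107R vehicle libraries. The number 1 and number 2 libraries alone were added after seeing the data. Coordinates and shared 75-base stretches come from GENCODE M21 on GRCm38, with bwa 0.7.19.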

Additional observations from a re-analysis of the deposited data

Results flagged for a closer look

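In iWAT the drug response differed between genotypes by a test of the difference itself for 2 genes of the alpha-1 antitrypsin family. For Serpina1b the difference of responses (K107R minus WT) was -1.38 on the log2 scale in iWAT and -1.20 in eWAT, where it is a description. For Serpina1d it was -1.14 in iWAT and -0.32 in eWAT, where it was not called. Both iWAT calls were lost with rescaled libraries (limma, adjusted p = 0.278 for Serpina1b and 0.112 for Serpina1d). They were also lost in the iWAT libraries alone (limma, adjusted p = 0.362 and 0.458). Since these copies share reads, they are not independent.

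For Serpina1d under rosiglitazone, the genotype difference had opposite signs in the depots, and neither was called in the main fit. It was 0.13 ± 0.09 (SE) in eWAT, with both K107R libraries above both WT libraries, at values of at most 0.407 FPKM. In iWAT it was -0.33 ± 0.09 (limma, adjusted p = 0.0848, and 0.0244 with the replicate block), with both below, at values of at most 1.19 FPKM. Of this gene's 75-base stretches, 65.2% matched another gene, so its values are uncertain between copies. This difference between depots was not tested.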

How the results depend on the processing

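Of 61 differences called for the 10 genes over the 14 contrasts, 54 were still called with a pseudocount of 0.1, 60 with no filter, 38 with rescaled libraries, 61 with the replicate block, 26 of 54 in the depot's libraries alone, and 43 to 55 on leaving out 1 library (fewest without eWAT WT vehicle 2). In that fit and without eWAT WT vehicle 1, Orm3 failed the filter and 57 could be recomputed. All recomputed differences kept their sign under these settings, and also in the number 1 and number 2 libraries alone (61 of 61 each, with no test). The block, no filter and the depot's libraries alone return the same difference as the main fit, so no sign could turn there. The same holds on leaving out a library that a contrast does not use. Depth is unknown and limits the low genes most. The block took away none of the 61 calls, and the calls it added stand as counts beside the results.

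With rescaled libraries the number of the 10 genes called was 2 for the drug in eWAT WT, 2 in iWAT WT, 0 for the response difference in eWAT, 0 in iWAT, 0 for K107R vehicle in iWAT and 1 for K107R with the drug in iWAT. In the depot's libraries alone it was 0 for the drug in eWAT WT, 0 in iWAT WT, 3 in iWAT K107R, 0 for both response differences, 0 for K107R vehicle and 0 for K107R with the drug in iWAT. With the replicate block it was 4 for K107R with the drug in eWAT, 6 in iWAT, 2 for the eWAT response difference, 7 for the drug in iWAT WT and 1 for the depot difference of the response. With a pseudocount of 0.1 it was 1 for K107R vehicle in iWAT. For K107R with the drug in iWAT it was 1 with no filter and 1 without the eWAT K107R vehicle libraries.

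On leaving out 1 library in turn, the counts ranged from 0 to 5 for the drug in eWAT WT, 1 to 4 in iWAT WT, 2 to 7 for K107R vehicle in eWAT, 1 to 2 in iWAT, 0 to 2 for K107R with the drug in eWAT, 1 to 2 in iWAT, 0 to 2 for the response difference in eWAT, 1 to 2 in iWAT, and 0 to 1 for the depot difference of the response. For K107R vehicle in eWAT the low count of 2 came without either K107R vehicle library or without WT vehicle 2.

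Among the lists, with rescaled libraries, inducers had 1 call for the drug in eWAT, 3 in iWAT, 2 for K107R vehicle in eWAT and 1 in iWAT. Receptors and proteases had 1 for the drug in eWAT, other acute phase genes 7 for the drug in eWAT and 1 for K107R vehicle in eWAT, and other Serpina genes 0 for the drug in either depot. With no filter, inducers had 1 for K107R vehicle in eWAT and 1 for the drug in iWAT. In the depot's libraries alone, receptors had 0 for the drug and 0 for K107R vehicle in iWAT, and other Serpina genes 1 for the drug in eWAT and 0 in iWAT. With the replicate block, inducers had 2 for K107R vehicle in eWAT and 2 for the drug in iWAT. Receptors then had 5 for the drug in eWAT, 5 in iWAT and 4 for K107R vehicle in eWAT. Other acute phase genes had 9 for the drug in eWAT, 6 in iWAT, 4 for K107R vehicle in eWAT and 2 in iWAT. Other Serpina genes had 2 for K107R vehicle in eWAT and 2 for the drug in iWAT. Leaving out 1 library, receptors ranged from 1 to 2 for K107R vehicle in eWAT, 0 to 1 in iWAT and 0 to 2 for the drug in iWAT, other acute phase genes from 0 to 2 for K107R vehicle in eWAT, and other Serpina genes from 1 to 2 for the drug in eWAT and 1 to 2 in iWAT.

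Among the tested differences of the 10 genes, signs turned for these, none of which had passed, and the cause was not tested. In eWAT, where no test is given, uncalled differences of Orm2, Serpina3n, Serpina1b, Serpina3m and Hp also changed sign under some settings. For Orm2 the drug difference in K107R was 0.0204 with a pseudocount of 0.1 and 0.00948 with rescaled libraries. Leaving out 1 library in turn gave these ranges. The drug difference of Orm1 in WT ran from -0.53 to 0.13. That of Orm2 ran from -0.28 to 0.33 in WT, from -0.098 to 0.096 in K107R and from -0.14 to 0.17 over genotypes, and its response difference ran from -0.34 to 0.28. The genotype difference of Hp with vehicle ran from -0.19 to 0.46, and that of Serpina3n with the drug from -0.075 to 0.12.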
